A study of Mus musculus with 8 samples.

Results

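The translation initiation factor RNAs were taken as every gene listed in all 8 libraries whose symbol is Eif followed by a digit from 1 to 6, without *Eif4enif1* and without pseudogene symbols ending in -ps. This gave 52 genes of 15962 listed in every library, and all 52 were among the 13968 genes tested. The libraries came from oocytes of superovulated 6-week-old female mice of the Crl:CD1 (ICR) stock, with 15 oocytes and 2 libraries in each of 4 groups. GV libraries held fully grown oocytes at the germinal vesicle stage, before meiosis resumes, and MII libraries held uninjected oocytes matured in culture to metaphase II. Btg4wt and Btg4tm libraries held MII oocytes that had been injected at the fully grown stage with RNA encoding Myc-tagged BTG4, an adaptor of the CCR4-NOT deadenylase. Btg4wt was the wild-type protein and Btg4tm a mutant in which a threonine and a pair of neighbouring serines were changed to alanine, and both groups kept their own *Btg4* gene. Whether the libraries of a group came from separate animals was not stated, so the p-values measure the spread between these libraries only.

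Values are TPM, the share of a library taken by a transcript after correction for its length, divided by a size factor per library, and are called scaled TPM. Reverse transcription was primed with oligo(dT), so a value depends on the length of the poly(A) tail as well as on the amount of RNA, and these cannot be told apart here. Differences are log2 fold changes of scaled TPM + 1 with their standard error (SE) from limma, and an RNA was called at an absolute log2 fold change over 1 with an adjusted p (Benjamini-Hochberg over all genes tested) under 0.05. The Pearson correlation between the 2 libraries of a group was 0.982 to 0.987 over all genes tested, and the median absolute log2 difference between them over the 52 RNAs was 0.14 in GV, 0.15 in MII, 0.15 in Btg4wt and 0.18 in Btg4tm. All 15 oocyte markers examined were present in every library, with sums of 42890 to 54880 scaled TPM, against 36.4 to 50.8 for the 6 of 15 cumulus and granulosa markers that were listed. *Btg4* RNA stood at 2650.0 and 2794 scaled TPM in GV, 5792 and 6003 in MII, 5178 and 5510.4 in Btg4wt, and 3725 and 4068 in Btg4tm. Neither injected group thus exceeded the uninjected MII libraries in this RNA as read by oligo(dT) priming. Whether the injected RNA carried a poly(A) tail is not stated in the paper, so these values do not show how much of it was present. These values do not measure protein, and the paper shows overexpression of both BTG4 forms by immunoblot. It adds that either form seemed to lower the oocytes' own BTG4 protein, a point it leaves to be clarified. Mitochondrially encoded RNAs took 0.625% and 0.651% of the total in GV, 2.71% and 2.60% in MII, 2.07% and 1.77% in Btg4wt, and 0.774% and 1.03% in Btg4tm.

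Initiation factors bring the initiator tRNA, the small ribosomal subunit and the capped mRNA together. eIF4E binds the cap, eIF4G is the scaffold and eIF4A the helicase, eIF3 holds the small subunit, eIF2 carries the initiator tRNA as a GTP complex, eIF2B recharges eIF2, and kinases that phosphorylate the alpha subunit of eIF2 block that recharging. eIF1 and eIF1A help to select the start codon, and eIF5, eIF5B and eIF6 act in GTP hydrolysis and in subunit joining or separation. Fully grown oocytes do not transcribe, and maturation runs on stored maternal mRNAs, some of which lose their tails while others gain them.

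From GV to MII, 19 of the 52 RNAs were lower and 6 were higher. Lower calls made up 36.5% of the 52 against 24% of all genes tested, and higher calls 11.5% against 12.5%. The median log2 fold change of the 52 was 0.13, and that of all genes tested was 0.00. The lower calls ranged from -1.26 for *Eif3b* to -3.89 for *Eif3f*, while the higher calls reached 1.55. In 25 RNAs both MII libraries were above both GV libraries and in 24 both were below, against 41.1% and 41.6% of all genes tested. The summed level of the 52 RNAs took 0.651% to 0.733% of the deposited total in every one of the 8 libraries.

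Between the injected groups, 16 of the 52 RNAs were higher in Btg4tm than in Btg4wt and 4 were lower. Higher calls made up 30.8% against 18.1% of all genes tested, and lower calls 7.69% against 7.94%, with a median log2 fold change of -0.02 for the 52 and 0.01 for all genes tested. In 24 RNAs both Btg4tm libraries were above both Btg4wt libraries and in 25 both were below, against 37.6% and 36.7% of all genes tested. All 16 RNAs higher in Btg4tm were among the 19 lower in MII, and the other 3, *Eif1a*, *Eif3b* and *Eif4b*, were not called. The matching overlap over all genes tested was not counted. Of all 3351 genes lower in MII, 82.5% rose in Btg4tm over Btg4wt by more than 50% of their fall. The share was 89.5% for the 19. The 6 RNAs higher in MII were not called between the injected groups, and the 4 lower in Btg4tm were not called between MII and GV. For these RNAs too, the matching overlap over all genes tested was not counted, so neither count is read as particular to initiation factors.

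**Figure D1:**
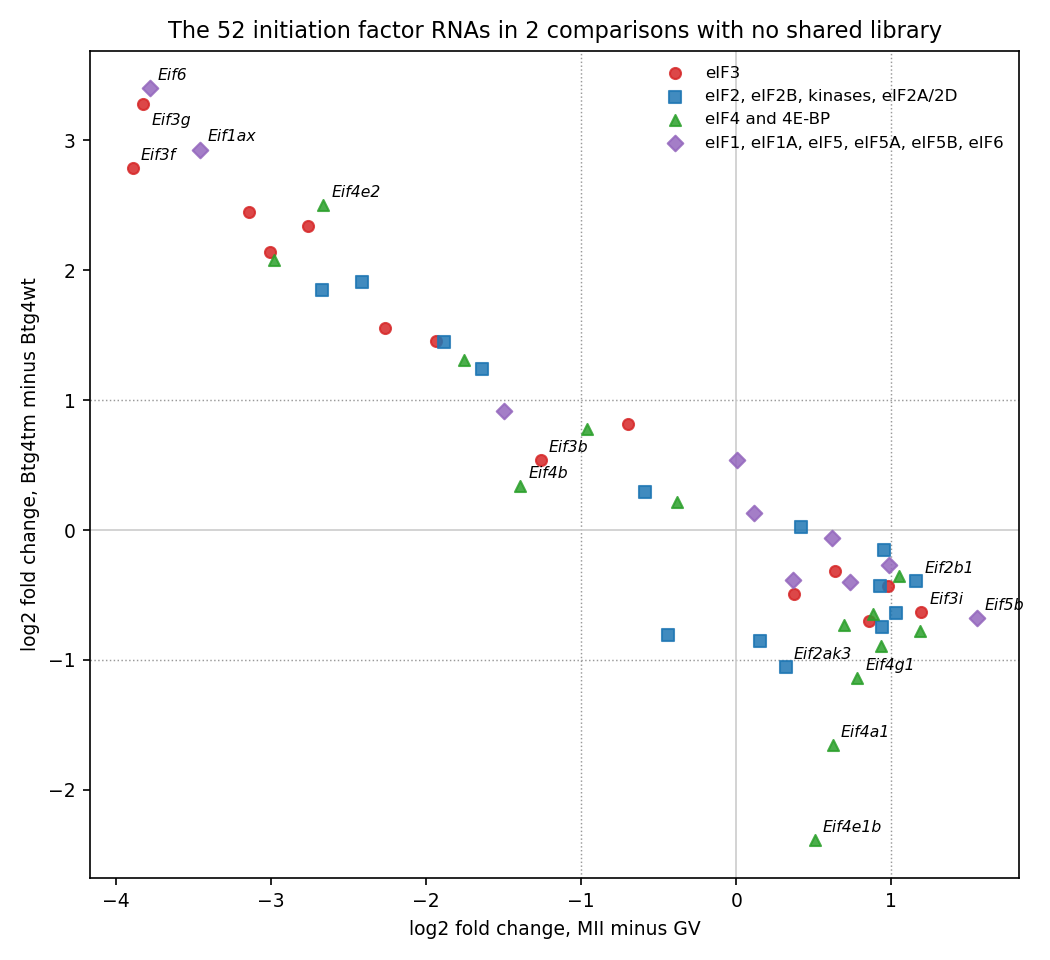
Log2 fold change of each of the 52 initiation factor RNAs in MII over GV (x axis) and from Btg4wt to Btg4tm (y axis), coloured by factor group, with dotted lines at 1 and -1. The 16 RNAs called in both comparisons lie at the upper left, and *Eif4e1b* stands at the bottom with log2 fold changes of 0.50 and -2.39.

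These counts depend on how libraries are scaled. With the deposited TPM left unscaled, 3 RNAs were higher and 20 lower in MII, and with quantile normalization 15 were higher and 19 lower. Scaling to the mitochondrially encoded RNAs, whose share moved with the groups as given above, shifted the median of all genes by -1.74 between GV and MII and gave 0 higher and 50 lower. Between the injected groups the same 3 scalings gave 16 higher and 4 lower, 15 higher and 8 lower, and 26 higher and 1 lower. Under mitochondrial scaling none of the 52 RNAs was called higher in MII, against 7 of all genes tested. The median of all genes was shifted to 0.875 in Btg4tm over Btg4wt, where the sign of 21 of the 52 RNAs changed. Each rise from GV to MII and each lower value in Btg4tm given here is therefore relative to the median gene, and the values below stand in that frame.

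eIF3, the largest initiation complex, had subunit RNAs called in both directions. Of 14 subunit RNAs, 8 were lower in MII, against 24% of all genes tested (*Eif3f*, *Eif3g*, *Eif3m*, *Eif3h*, *Eif3l*, *Eif3d*, *Eif3k* and *Eif3b*), *Eif3i* was higher, and *Eif3a*, *Eif3c*, *Eif3e*, *Eif3j1* and *Eif3j2* were not called. In the mutant comparison 7 of the 14 (50%) were called higher in Btg4tm, against 18.1% of all genes tested, and none was called lower. All 7 were among the 8 lower in MII, and most genes called lower in MII rose in Btg4tm, as given above.

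*Eif3f*, whose product is a subunit with an MPN domain, stood at 37.1 and 32.1 scaled TPM in GV, 1.82 and 1.03 in MII, 2.73 and 2.44 in Btg4wt, and 20.9 and 26.8 in Btg4tm. It was near the filter minimum of 1 TPM in uninjected MII oocytes, and GV and Btg4tm lay above every MII and Btg4wt library. Its log2 fold change was -3.89 (SE 0.22, adjusted p = 2.94e-06) from GV to MII and 2.79 (SE 0.22, adjusted p = 2.63e-05) from Btg4wt to Btg4tm. *Eif3f* is also shown for its start, because a cytosine followed by at least 4 pyrimidines at the first base is the pattern of TOP mRNAs, the class that holds the ribosomal protein mRNAs. In the RefSeq promoter table (GRCm38.p6), chr7:108934407-108934434 on the plus strand, with the run of pyrimidines from the annotated start in capitals, reads as follows.
Eif3f start: taggctctCTCTCTTTCTCggcaagatg
Of 41 initiation factor RNAs with an entry, 2 had such a start (4.88%), against 2.4% of 9793 genes tested and 10 of 58 ribosomal protein genes (17.2%). The other was *Eif2s3x*, at chrX:94212632-94212659 on the minus strand.
Eif2s3x start: gcattttcCTTTTCTCTCCgagcaagat
The 2 RNAs did not share a course, since *Eif2s3x* was called in neither comparison. As only 17.2% of the ribosomal protein genes passed, a search at the annotated first base misses many TOP mRNAs. An initiation factor RNA that did not pass may still be one, and whether TOP starts go with the course was not tested.

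*Eif3g*, which encodes an RNA-binding subunit, was the most abundant eIF3 RNA in GV at 268 and 285 scaled TPM and fell to 20.8 and 16.6 in MII. It stood at 24.0 and 17.4 in Btg4wt and 206 and 209 in Btg4tm. *Eif3i*, a subunit with WD repeats, went the other way, from 87.5 and 89.6 in GV to 206 and 201 in MII, with 195 and 185 in Btg4wt and 114 and 130.5 in Btg4tm. The order of these subunits therefore changed place: *Eif3g* exceeded *Eif3i* in all GV and Btg4tm libraries, and *Eif3i* exceeded *Eif3g* in all MII and Btg4wt libraries. *Eif3i* rose by a log2 fold change of 1.19 (SE 0.10, adjusted p = 2.39e-05) from GV to MII and did not pass the threshold between the injected groups, at -0.63 (SE 0.10, adjusted p = 0.00114). Under mitochondrial scaling the latter was 0.45 (adjusted p = 0.0544).

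The remaining lower subunits had log2 fold changes of -3.14 for *Eif3m*, -3.0 for *Eif3h*, -2.76 for *Eif3l*, -2.27 for *Eif3d*, -1.94 for *Eif3k* and -1.26 for *Eif3b*. *Eif3m*, the next after *Eif3g* among the called falls of eIF3 subunits, had 218 and 235 scaled TPM in GV and 27.5 and 22.3 in MII. It had 28.7 and 21.7 in Btg4wt, and 134 and 147 in Btg4tm. *Eif3b*, a core scaffold subunit, was the exception between the injected groups, with 33.1 and 30 in Btg4wt and 58.2 and 36.6 in Btg4tm (log2 fold change 0.54, SE 0.20, adjusted p = 0.0516). The uncalled scaffold subunits *Eif3a* and *Eif3c* had log2 fold changes of 0.86 and 0.37 from GV to MII. In every scaling, filter and left-out library tried, the 8 had lower log2 fold changes in MII over GV than the other 6. The 8 were chosen by that same value in the same libraries, so this order is a description and no separate evidence of a split. Together the 14 RNAs summed to 1290.0 and 1319 scaled TPM in GV, 596 and 572 in MII, 618 and 573 in Btg4wt, and 1028 and 1094 in Btg4tm.

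Counting limits bear on some subunits. In GENCODE M21 transcripts, 91.8% of the 50-base stretches of *Eif3j2* and 54.8% of those of *Eif3j1* occur in another gene, each mainly in the other, so their levels are uncertain. For *Eif3d* the share is 42.1%, from the overlapping *Gm17638*, and for *Eif3h* 26.2%, and counting did not use strand. *Eif3f*, *Eif3g* and *Eif3i* have none.

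**Figure D2:**
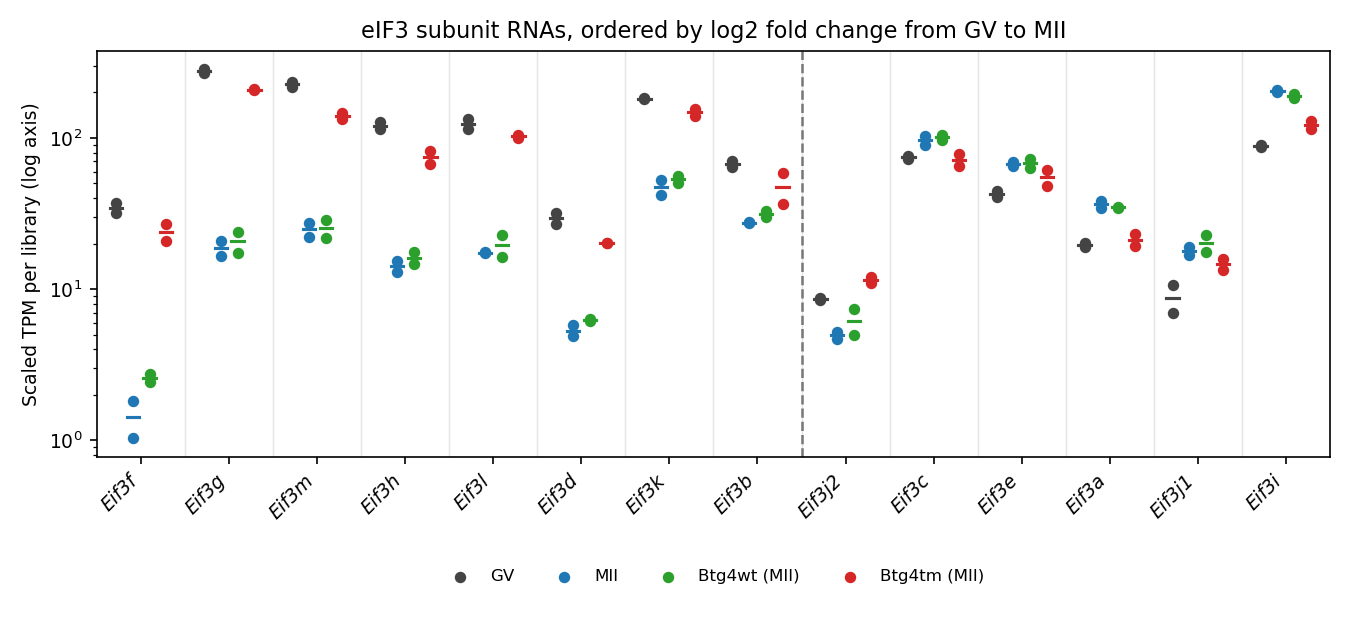
Scaled TPM of the 14 eIF3 subunit RNAs in each library on a log axis, ordered by the change between GV and MII, with points for libraries and short bars for group means. Left of the dashed line are the 8 subunits lower in MII, where the GV and Btg4tm points lie above the MII and Btg4wt points, and *Eif3i* is at the far right with the opposite order.

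The tRNA carrier eIF2 and its exchange factor eIF2B also split by subunit. *Eif2s1*, which encodes the alpha subunit phosphorylated by the eIF2 kinases, fell from 115 and 105 scaled TPM in GV to 36.9 and 32.5 in MII, and stood at 40.1 and 31.9 in Btg4wt and 82.5 and 89.0 in Btg4tm. *Eif2s2*, the beta subunit, had 159 and 149 in GV, 305 and 292 in MII, 281 and 332 in Btg4wt, and 272 and 277 in Btg4tm. The log2 fold change of *Eif2s1* was -1.64 (SE 0.14, adjusted p = 2.34e-05) from GV to MII and 1.24 (SE 0.14, adjusted p = 0.000168) between the injected groups. For *Eif2s2* it was 0.95 (SE 0.11, adjusted p = 0.000104), just under the fold threshold. *Eif2s3x*, the gamma subunit, was lowest in every library at 9.25 to 21.0 scaled TPM, with 36.2% of its 50-base stretches shared with other genes.

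In eIF2B, *Eif2b1* was the most abundant initiation factor RNA of all 52 in every group. It stood at 741 and 632 scaled TPM in GV, 1555 and 1502 in MII, 1373 and 1367 in Btg4wt, and 1023 and 1066 in Btg4tm. *Eif2b4*, the delta subunit gene, fell from 223 and 238 in GV to 35.9 and 34.6 in MII, with 45.9 and 46.0 in Btg4wt and 185 and 153 in Btg4tm. The alpha subunit RNA thus rose (log2 fold change 1.16, SE 0.10, adjusted p = 2.94e-05) while the delta subunit RNA fell (-2.67, SE 0.12, adjusted p = 9.50e-07). The call of *Eif2b1* was lost by the fold threshold on the deposited TPM (0.9998) and with quantile normalization (0.98). *Eif2b2*, the beta subunit gene, was also lower in MII (-1.88) and higher in Btg4tm (1.45), whereas *Eif2b3* and *Eif2b5* were not called. The highest of the 5 subunit RNAs was 68.0 and 75.9 times the lowest in GV and 246 and 209 times in MII.

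The 4 kinase RNAs had higher values in both MII libraries than in both GV libraries, as had 41.1% of all genes tested. *Eif2ak1*, the heme-regulated kinase, was the only one of the 4 called, at 68.3 and 72.6 scaled TPM in GV and 149 and 141 in MII (log2 fold change 1.03, SE 0.10, adjusted p = 5.84e-05). It fell under the fold threshold on the deposited TPM (0.88) and without GV replicate 1 (0.99). All 4 had lower values in both Btg4tm libraries than in both Btg4wt libraries, as had 36.7% of all genes tested. There *Eif2ak3*, the kinase of the endoplasmic reticulum stress response, was called at -1.06 (SE 0.30, adjusted p = 0.0191), from 18.8 and 15.7 in Btg4wt to 11.1 and 5.26 in Btg4tm. That call was lost without Btg4wt replicate 1 (-0.94, adjusted p = 0.0913) and without Btg4tm replicate 2 (-0.58, adjusted p = 0.0850), and under mitochondrial scaling the log2 fold change was -0.05 (adjusted p = 0.909). *Eif2ak1* and *Eif2ak4* were at 0.44 and 0.59 in Btg4tm over Btg4wt under that scaling.

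**Figure D3:**
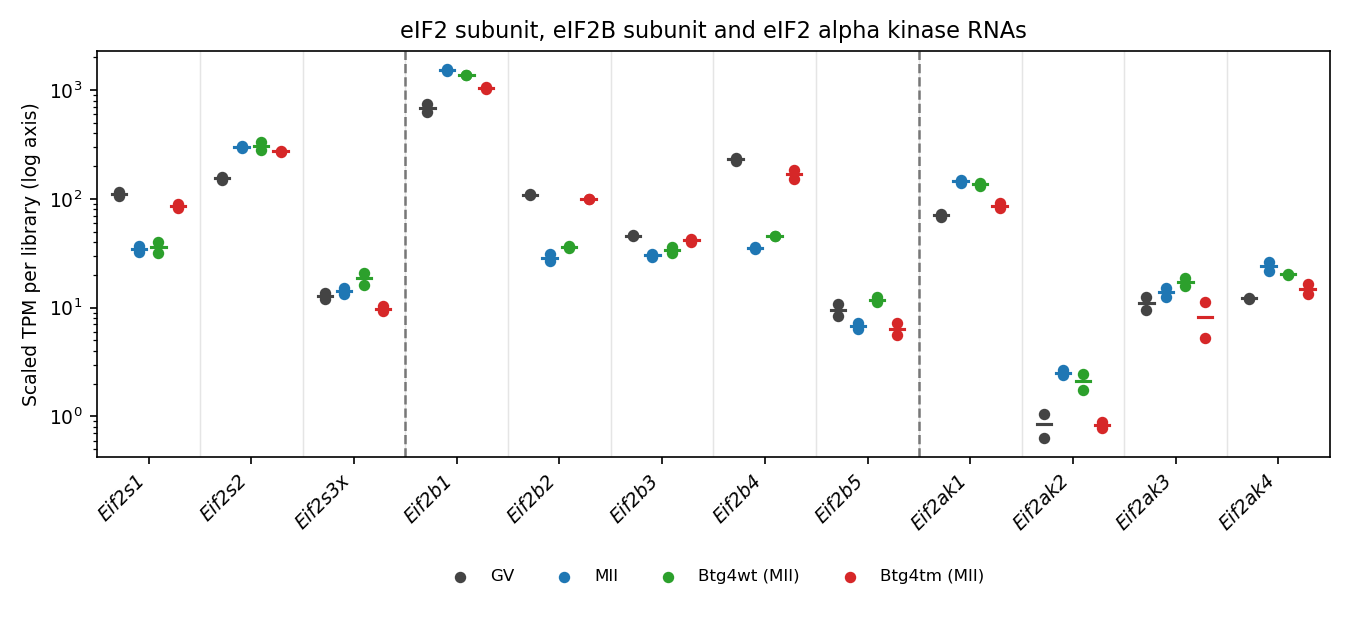
Scaled TPM of eIF2 subunit, eIF2B subunit and eIF2 alpha kinase RNAs in each library on a log axis, with points for libraries, short bars for group means and dashed lines between the 3 groups of genes. *Eif2b1* lies above every other RNA, and *Eif2s1*, *Eif2b2* and *Eif2b4* are lower in MII and Btg4wt than in GV and Btg4tm.

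Of the 4 cap-binding paralog RNAs, *Eif4e3* was called higher and *Eif4e2* lower in MII, and in Btg4tm over Btg4wt *Eif4e2* was called higher and *Eif4e1b* lower. *Eif4e*, the general cap-binding protein gene, stood at 229 and 202 scaled TPM in GV, 110.4 and 109 in MII, 130.1 and 112 in Btg4wt, and 218 and 199 in Btg4tm. *Eif4e1b*, the paralog expressed mainly in oocytes, had 106 and 171 in GV, 187 and 196 in MII, 347 and 339 in Btg4wt, and 47.5 and 88.0 in Btg4tm. *Eif4e* did not pass the fold threshold in either direction, at -0.96 (SE 0.12, adjusted p = 0.000151) from GV to MII and 0.78 between the injected groups. *Eif4e1b* was the most variable of the 52 RNAs between the GV libraries, by a log2 difference of 0.68, and yet both Btg4tm libraries were below all 6 other libraries.

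*Eif4e1b* had the largest fall among the 52 in the mutant comparison, at -2.39 (SE 0.29, adjusted p = 0.000246). It stayed called under every alternative, between -1.31 under mitochondrial scaling and -2.83 without Btg4tm replicate 2. From GV to MII its log2 fold change was 0.50 (SE 0.29, adjusted p = 0.159), and it was -1.70 under mitochondrial scaling. Between Btg4wt and uninjected MII it was 0.84 (SE 0.29, adjusted p = 0.332), and between Btg4tm and GV -1.04 (SE 0.29, adjusted p = 0.0536). The gene lies at chr13:54783998-54788459 on the plus strand of GRCm38.

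The ratio of *Eif4e1b* to *Eif4e* in a library does not depend on the size factor of that library. It was 0.462 and 0.844 in GV, 1.69 and 1.79 in MII, 2.67 and 3.03 in Btg4wt, and 0.218 and 0.443 in Btg4tm. *Eif4e1b* thus exceeded *Eif4e* in all 4 MII and Btg4wt libraries and in none of the 4 GV and Btg4tm libraries.

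*Eif4e3*, an atypical cap-binding paralog, was the most abundant of the 4 in MII, at 503 and 476 scaled TPM, against 255 and 218 in GV, 405 and 430.0 in Btg4wt, and 351 and 302 in Btg4tm. Its log2 fold change of 1.05 (SE 0.12, adjusted p = 9.88e-05) from GV to MII was lost as a call on the deposited TPM (0.89) and without GV replicate 2 (0.94), where it lay under the fold threshold. *Eif4e2*, whose product binds caps in translational repression, fell from 16.7 and 19.9 in GV to 2.55 and 1.59 in MII, and stood at 1.59 and 1.81 in Btg4wt and 13.9 and 14.6 in Btg4tm. *Eif4e2* made up 2.76% and 3.26% of the TPM of the 4 paralogs in GV and 0.317% and 0.204% in MII.

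By Pearson correlation of log2 values over the 8 libraries, the genes most like *Eif4e1b* among 6881 that averaged 10 scaled TPM or more were *Zfp108* (0.994), *Gm44796* (0.992), *Caskin2* (0.990), *Dnmt1* (0.989), the maintenance DNA methyltransferase gene, and *Sf1* (0.989), a splicing factor gene. These genes share its libraries, and each was lower in GV replicate 1 than in GV replicate 2 and in Btg4tm replicate 1 than in Btg4tm replicate 2.

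The 3 eIF4G scaffold RNAs had higher values in both MII libraries than in both GV libraries, as had 41.1% of all genes tested, and lower values in both Btg4tm libraries than in both Btg4wt libraries, as had 36.7%. Under mitochondrial scaling *Eif4g2* and *Eif4g3* were at 0.43 and 0.18 in Btg4tm over Btg4wt. *Eif4g1* stood at 18.2 and 22.5 scaled TPM in GV, 37.8 and 33.3 in MII, 41.6 and 38.8 in Btg4wt, and 16.6 and 18.8 in Btg4tm. *Eif4g2*, which lacks the eIF4E-binding part, had 58.3 and 55.9, 113 and 99.2, 108 and 107, and 74.6 and 62.4 in the same order of groups. *Eif4g3* had 40.3 and 50.9, 85.2 and 89.9, 105 and 118, and 49.1 and 72.4. Of these only *Eif4g1* was called, in Btg4tm over Btg4wt at -1.14 (SE 0.15, adjusted p = 0.000388).

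The eIF4A helicases diverged from the related *Eif4a3*, which belongs to the exon junction complex. *Eif4a1* had 142 and 188 scaled TPM in GV, 248 and 256 in MII, 268 and 306 in Btg4wt, and 104 and 78.3 in Btg4tm, and was lower in Btg4tm than in Btg4wt by a log2 fold change of -1.65 (SE 0.17, adjusted p = 0.000115). *Eif4a2* had 74.2 and 68.6 in GV, 160.4 and 167 in MII, 159.9 and 123 in Btg4wt, and 83.5 and 79.7 in Btg4tm, and was called in MII (1.19, SE 0.13, adjusted p = 0.000103). *Eif4a3* was lower in MII (-1.76) and higher in Btg4tm (1.31), so that its ratio to *Eif4a1* went from 1.59 and 1.55 in GV to 0.322 and 0.276 in MII. The helicase cofactor RNAs *Eif4b* and *Eif4h* were both lower in MII, at -1.39 and -2.98, and only *Eif4h* was called higher in Btg4tm, at 2.08. Under mitochondrial scaling *Eif4a1* and *Eif4g1* lost their calls between the injected groups, at -0.57 (adjusted p = 0.0861) and -0.09 (adjusted p = 0.725). For *Eif4a1* and *Eif4a3*, 33.3% and 24.4% of 50-base stretches are shared with other genes. The inhibitor RNAs *Eif4ebp1* and *Eif4ebp2* lay between 1.2 and 7.57 scaled TPM and were not called.

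**Figure D4:**
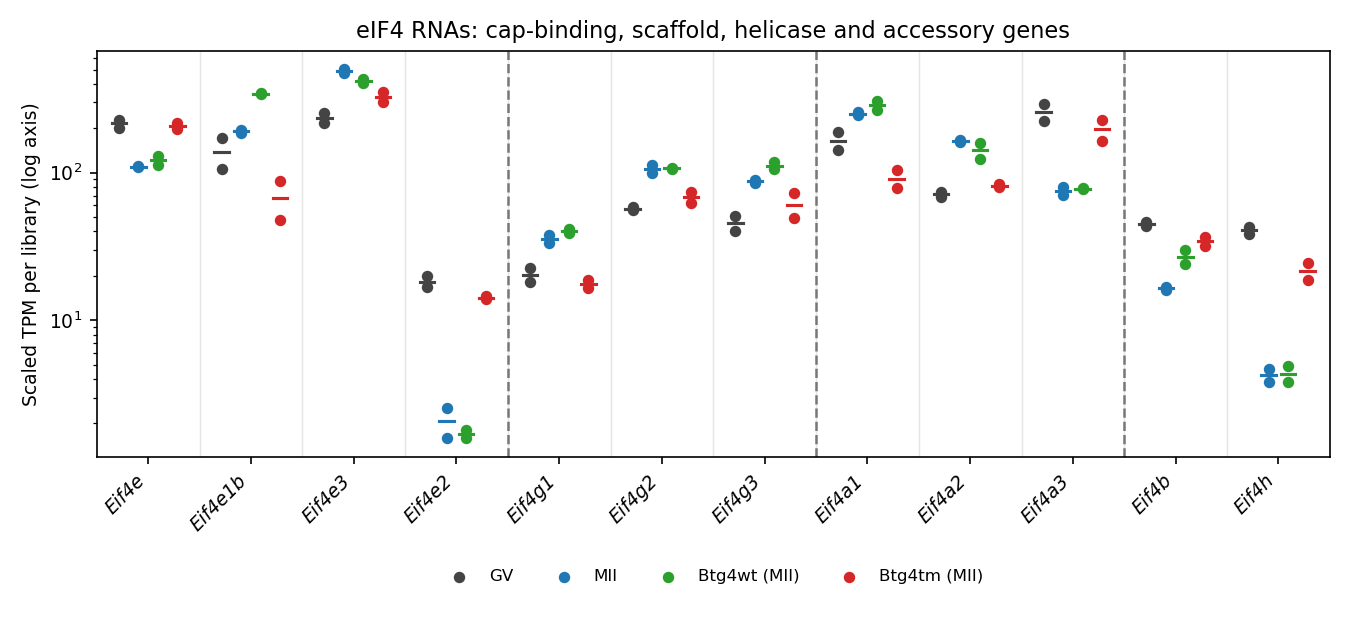
Scaled TPM of the cap-binding, scaffold, helicase and accessory RNAs of eIF4 in each library on a log axis, with points for libraries, short bars for group means and dashed lines between the kinds of factor. *Eif4e1b*, *Eif4a1* and *Eif4g1* have their lowest or near-lowest values in Btg4tm, and *Eif4e2* and *Eif4h* their lowest in MII and Btg4wt.

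**Figure D5:**
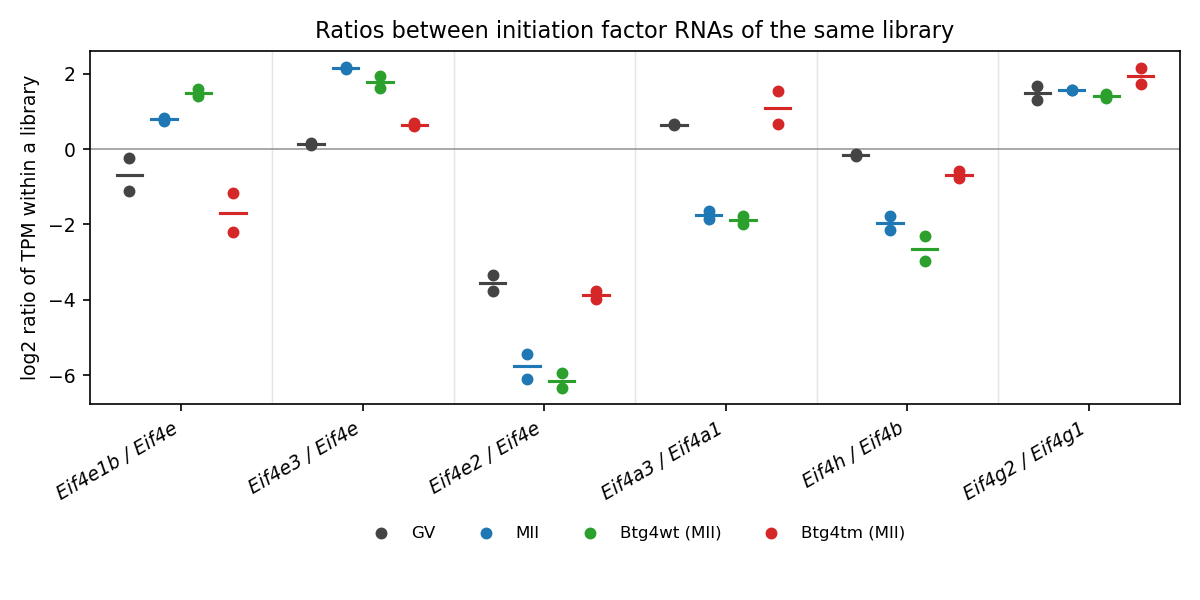
Log2 ratio of TPM between pairs of initiation factor RNAs in the same library, with points for libraries and short bars for group means. The *Eif4e1b* to *Eif4e* ratio is above 0 in MII and Btg4wt and below 0 in GV and Btg4tm, and the *Eif4a3* to *Eif4a1* ratio has the opposite order.

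Among the factors of start selection and subunit joining, *Eif6* and *Eif1ax* fell most. *Eif6*, which keeps the large ribosomal subunit apart, stood at 469 and 527 scaled TPM in GV, 30.6 and 40.5 in MII, 39.1 and 36.7 in Btg4wt, and 424 and 396 in Btg4tm. *Eif1ax*, an eIF1A gene on the X chromosome, had 159 and 175 in GV, 13.3 and 15.2 in MII, 16.5 and 15.5 in Btg4wt, and 119 and 138 in Btg4tm. For both RNAs, MII did not overlap GV and Btg4tm did not overlap Btg4wt. The log2 fold changes of these comparisons were -3.78 (SE 0.14, adjusted p = 5.84e-07) and 3.40 (SE 0.14, adjusted p = 1.71e-06) for *Eif6*, and -3.46 and 2.93 for *Eif1ax*. *Eif1a*, its autosomal paralog, was at 0.325 to 3.43 scaled TPM, and its log2 fold change of -1.5 in MII over GV rests on values around the minimum of 1 TPM.

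*Eif5b*, the GTPase of subunit joining, had the largest rise of the 52, from 57.7 and 59.3 scaled TPM in GV to 183 and 163 in MII (log2 fold change 1.55, SE 0.11, adjusted p = 1.01e-05), with 169.6 and 189.8 in Btg4wt and 107 and 117 in Btg4tm. It overlaps *Rev1* over 16.8% of its exon bases. *Eif1b*, the next most abundant member in GV after *Eif2b1*, had 535 and 580.4 in GV, 663 and 547 in MII, 558 and 621 in Btg4wt, and 631 and 659 in Btg4tm, and was called in neither comparison. *Eif2d*, which can deliver tRNA without eIF2, was lower in MII (-2.41) and higher in Btg4tm (1.91).

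For the 19 RNAs lower in MII, the rise from Btg4wt to Btg4tm was set against the fall from GV to MII on the log2 scale. The share had a median of 75.3%, ran from 24.4% for *Eif4b* to 93.8% for *Eif4e2*, and was over 50% for 17 (89.5%). Over all 3351 genes called lower in MII the median was 76.5%, and the share was over 50% for 82.5%. The value of *Eif4e2* rests on 1.59 to 2.55 scaled TPM in MII and Btg4wt. These comparisons share no library. Since the 19 were chosen for their fall, that fall is a description.

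No initiation factor RNA was called between Btg4wt and uninjected MII, where limma called 0 of all genes tested (0%) in either direction. At an unadjusted p under 0.05, 6 of the 52 and 1655 of 13968 genes passed, all 6 being higher in Btg4wt. Between Btg4tm and GV, 0 of the 52 were called, against 1.02% of all genes higher and 1.02% lower, and 28 of the 52 and 4147 of all genes passed an unadjusted p under 0.05. The median log2 fold change of the 52 was 0.12 between Btg4wt and MII and -0.14 between Btg4tm and GV, against 0.02 and -0.08 for all genes. Both Btg4wt libraries were above both MII libraries for 20 of the 52 and below for 8, against 24.1% and 20.8% of all genes, and both Btg4tm libraries were above both GV libraries for 18 and below for 24, against 25.3% and 34.2%. Injected and uninjected libraries also came in separate sets of tables that list different genes, so injection and table set cannot be told apart in these comparisons.

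Cytoplasmic polyadenylation elements (CPE) near the 3' end are known to guide tail length during maturation, so the last 100 bases of 1 coding transcript per gene (the principal isoform where the annotation marks one, and the longest among equals) were searched on the sense strand for TTTTAT or TTTTAA. Of 47 members with a 3' untranslated region that long, 8 (17%) held a motif, against 31% of 10465 genes. The polyadenylation signals AATAAA or ATTAAA stood in 80.9% of the 47 and 81.9% of the genes. Windows of 30 bases are shown for RNAs that fell in MII and for *Eif4e3*, which rose, with the motif in capitals. On GRCm38 they lie at chrX:159389887-159389916 (plus strand) for *Eif1ax*, chr15:79094354-79094383 (plus) for *Eif3l*, chr5:134619887-134619916 (minus) for *Eif4h*, and chr6:99625205-99625234 (minus) for *Eif4e3*.
Eif1ax: attcagtggatgTTTTATgctgcacaaata
Eif3l: aaggactggatgTTTTAAggcgctctcagt
Eif4h: ttgtgaatgatcTTTTAAataaaagagaac
Eif4e3: aaTTTTATttttgaactttatttaaagcat
The motif was thus present in RNAs of both directions, and also in RNAs not called from GV to MII, such as *Eif2a* and *Eif2ak3*. *Eif1ax* and *Eif3l* had neither polyadenylation signal in the bases searched, so whether their annotated ends are those used is unknown. The *Eif4e3* motif began 98 bases from the annotated end, near the edge of the 100 bases searched. The transcripts chosen in this way for the 19 RNAs lower in MII had a median length of 1942 bases, those of the 6 higher 2612, those of the 27 not called 3383, and those of all genes with a length 2944.

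Genes that work beside the initiation factors were described from a list of 31, of which 28 were tested. From GV to MII 2 were higher (7.14%) and 5 lower (17.9%), against 12.5% and 24% of all genes tested. In Btg4tm over Btg4wt 4 were higher (14.3%) and 2 lower (7.14%), against 18.1% and 7.94%. No share was above that of all genes tested. *Paip2*, which keeps the poly(A)-binding protein off the tail, stood at 648 and 552 scaled TPM in GV, 69.9 and 82.2 in MII, 80.2 and 43.4 in Btg4wt, and 558 and 487 in Btg4tm. *Paip1*, which links that protein to eIF4A, went from 520.3 and 469 in GV to 2830.3 and 2584 in MII, with 2275 and 2259.8 in Btg4wt and 1446 and 1020.2 in Btg4tm. From GV to MII *Paip2* and *Paip1* changed in opposite directions, at -2.96 (SE 0.25, adjusted p = 2.28e-05) and 2.45 (SE 0.16, adjusted p = 5.97e-06). The related *Paip2b* was not called and did not fall with *Paip2*, at 0.66 (SE 0.12, adjusted p = 0.00132). *Dhps*, *Mcts1* and *Pabpc1l* were lower in MII, at log2 fold changes of -2.34, -1.96 and -1.65, and higher in Btg4tm, at 2.15, 1.75 and 1.06. *Dhps* lay under 1 scaled TPM in MII (0.129 and 0.608) and in Btg4wt (0.417 and 0.159), so the size of its change is uncertain. *Impact*, whose product counters the kinase of *Eif2ak4*, was lower in Btg4tm at -1.30 (SE 0.23, adjusted p = 0.00176). It stood at 4.97 and 4.48 scaled TPM in Btg4wt and 1.09 and 1.57 in Btg4tm, near the filter minimum of 1 TPM, so the size of this change is uncertain too.

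Most ribosomal protein and elongation factor RNAs were called in the same direction within each comparison. Of 79 ribosomal protein RNAs tested, 67 were lower in MII and 1 higher, with a median log2 fold change of -3.05, and 62 were higher in Btg4tm, with a median of 2.48. Of 11 elongation factor RNAs, 8 (72.7%) were lower in MII and 6 (54.5%) higher in Btg4tm, with medians of -2.11 and 1.01. The initiation factor RNAs had medians of 0.13 and -0.02 in the same comparisons, with 36.5% called lower in MII and 30.8% called higher in Btg4tm. Their difference from the ribosomal protein and elongation factor RNAs was not tested.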

How the data were processed

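RNA was measured by oligo(dT)-primed Smart-seq2 in 8 libraries of 15 oocytes. The authors trimmed reads with Trim Galore 0.6.10, aligned them to GRCm38 with HISAT2 2.2.0 and the GENCODE annotation, counted primary alignments on exons without strand with featureCounts 2.0.6, and deposited TPM per gene. The gene lengths behind the TPM and the listing filter are not given in the sources used here. TPM keep no read depth, so counting error is unknown and precision rests on 2 libraries per group, where an exact permutation test cannot go below 0.33.

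The deposited TPM of 15962 genes listed in all libraries were scaled by the median of ratios (size factors 0.948 to 1.11). The 13968 genes that reached 1 TPM in 2 libraries or more were fitted as log2(scaled TPM + 1) with limma 3.58.1 in R 4.3.3 (lmFit, contrasts, eBayes with trend) over all libraries, with Benjamini-Hochberg adjustment over all of them. The authors' count model was not used, since TPM are not counts. Fold changes on this scale understate changes of low RNAs.

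Members were set by symbol, and the members, lists and tests were chosen with earlier results of these data known. Values per library are given for the eIF4E, eIF4G and eIF4A genes, for up to 5 called members with the largest rise and fall per comparison among those averaging 10 scaled TPM or more, for the extreme subunits of eIF2, eIF2B and eIF3, and for the 3 most abundant members in GV. Other values are given where a statement rests on them. At most 6 called partner genes are named, with *Paip2b* beside *Paip2*, and the 5 genes most like Eif4e1b. Transcript sequences were from a GENCODE release on GRCm38 earlier than that of the authors and start sequences from RefSeq. Alternatives were other scalings, a pseudocount of 0.1, no filter or 5 TPM, fewer libraries in the fit, a replicate block and leaving out each library.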

Additional observations from a re-analysis of the deposited data

How the results depend on the processing

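The scaling set most of the counts. From GV to MII, 6 RNAs called higher became 3 on deposited TPM, 15 with quantile normalization and 0 with mitochondrial scaling, and 6 to 10 when a library was left out (10 without MII replicate 2). The 19 called lower became 50 with mitochondrial scaling and stayed at 19 to 20 with a library left out. Between Btg4tm and Btg4wt, the 16 called higher became 26 with mitochondrial scaling and were 16 to 18 with a library left out, and the 4 called lower became 8 with quantile normalization and 1 with mitochondrial scaling, and 3 to 5 with a library left out. Between Btg4wt and MII, 0 called higher became 1 with mitochondrial scaling. Between Btg4tm and GV, 0 called lower became 3 on deposited TPM, 17 with mitochondrial scaling, and 1 each with quantile normalization, the 5 TPM filter and the replicate block, and 0 to 2 with a library left out (2 without GV replicate 1, 2 without Btg4tm replicate 1). The replicate numbers did not pair the libraries, since the correlations of same-numbered deviations lay between -0.054 and 0.056, and the block changed no other count by more than 1.5 times. Mitochondrial scaling changed the sign of 28 of 52 log2 fold changes from GV to MII, 21 in Btg4tm over Btg4wt, 12 in Btg4wt over MII and 19 in Btg4tm over GV, called or not. From GV to MII these were -1.48 for *Eif1*, -1.82 for *Eif1ad*, -2.10 for *Eif1b*, -1.66 for *Eif2a*, -1.16 for *Eif2ak1*, -0.37 for *Eif2ak2*, -1.73 for *Eif2ak3*, -1.17 for *Eif2ak4*, -1.06 for *Eif2b1*, -1.26 for *Eif2s2*, -1.91 for *Eif2s3x*, -1.28 for *Eif3a*, -1.82 for *Eif3c*, -1.54 for *Eif3e*, -1.01 for *Eif3i*, -1.07 for *Eif3j1*, -1.59 for *Eif4a1*, -1.01 for *Eif4a2*, -1.70 for *Eif4e1b*, -1.16 for *Eif4e3*, -1.11 for *Eif4ebp2*, -1.36 for *Eif4g1*, -1.31 for *Eif4g2*, -1.25 for *Eif4g3*, -1.22 for *Eif5*, -1.60 for *Eif5a*, -1.33 for *Eif5a2* and -0.65 for *Eif5b*. In Btg4tm over Btg4wt they were 0.68 for *Eif1*, 0.69 for *Eif1ad*, 0.44 for *Eif2ak1*, 0.59 for *Eif2ak4*, 0.70 for *Eif2b1*, 0.17 for *Eif2b5*, 0.93 for *Eif2s2*, 0.16 for *Eif2s3x*, 0.35 for *Eif3a*, 0.58 for *Eif3c*, 0.76 for *Eif3e*, 0.45 for *Eif3i*, 0.59 for *Eif3j1*, 0.30 for *Eif4a2*, 0.73 for *Eif4e3*, 0.18 for *Eif4ebp2*, 0.43 for *Eif4g2*, 0.18 for *Eif4g3*, 0.81 for *Eif5*, 1.03 for *Eif5a* and 0.40 for *Eif5b*. Uncalled values near 0 also changed sign, with *Eif1b* at -0.046 and *Eif5a2* at -0.095 in MII over GV on deposited TPM and *Eif2a* at -0.15 in Btg4tm over Btg4wt with quantile normalization. With a library left out, these ran from -0.014 to 0.26 for *Eif1b*, from -0.15 to 0.16 for *Eif5a2* and from -0.10 to 0.13 for *Eif2a*, and in Btg4tm over Btg4wt *Eif4ebp1* ran from -0.11 to 0.53 and *Eif5a* from -0.29 to 0.16. The cause was not tested. From GV to MII *Eif2b1* and *Eif2ak1* lost their calls by the fold threshold on deposited TPM, *Eif2b1* also with quantile normalization and *Eif2ak1* without GV replicate 1, as did *Eif2s1* in Btg4tm over Btg4wt with quantile normalization (0.98). Without the read depth, low RNAs such as *Eif1a* and *Eif2ak2* stay uncertain.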
